A study of Mus musculus with 26 samples.

Results

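The cytosolic ribosomal protein genes were taken as every protein-coding mouse gene whose symbol starts with Rpl or Rps followed by a digit, together with Rplp0, Rplp1, Rplp2 and Rpsa, leaving out the S6 kinases and Rps19bp1. The rule used names alone and gave 93 genes found under the same identifier in all 3 count tables, which list 54375 genes for monocytes, 54863 for small peritoneal macrophages (SPMs) and 57186 for lung macrophages. Of these, 77 encode the standard proteins of the ribosome (46 of the large and 31 of the small subunit, called core here), 8 are paralogs (Rpl3l, Rpl7l1, Rpl10l, Rpl22l1, Rpl36al, Rpl39l, Rps27l and Rps27rt) and 8 carry the suffix of a pseudogene copy although the annotation lists them as protein-coding. The RNA sequencing compared wild type (WT) C57BL/6J mice with mice lacking the atypical chemokine receptor ACKR2, a scavenger of inflammatory chemokines, in sorted cells of naïve female mice. The general age for the animals was 8 to 10 weeks, and none is given for the sequenced samples in particular. There were 4 WT and 4 ACKR2-/- samples of bone marrow monocytes, 4 and 4 of SPMs from peritoneal lavage, and 5 and 5 of MHCII negative lung macrophages. Each monocyte or SPM sample pooled 5 mice, and the number of mice behind a lung sample is not given. WT mice were bought and ACKR2-/- mice were bred in-house as a homozygous colony, so genotype and colony cannot be told apart.

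The ribosome is built of a large and a small subunit, each a core of ribosomal RNA covered by many different proteins, most of which are needed in equal numbers. Most of these mRNAs begin with a C followed by a run of pyrimidines, the 5′ terminal oligopyrimidine (TOP) motif, through which the kinase mTOR and the RNA-binding protein Larp1 control their translation together with that of several translation factors. Some ribosomal proteins have close paralogs that can take their place in the particle, and free Rpl5, Rpl11 and Rpl23 bind Mdm2 and so stabilise p53.

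The start-site sequences below are those of genes whose levels are followed in the results, shown so that the pyrimidine run at the start can be compared between them, with Rps27 and Rpl22 next to their paralogs. Each is the 30 bases from 10 before the RefSeq start site to 20 after it on GRCm38.p6, written 5′ to 3′ on the strand of the gene, and capitals mark the longest run of C and T that touches the bases from 5 before to 10 after the start.
Rps27, chr3:90213629-90213658, minus strand: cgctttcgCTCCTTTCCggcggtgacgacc
Rps27rt, chr9:114982720-114982749, minus strand: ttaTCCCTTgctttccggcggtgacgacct
Rps27l, chr9:66946076-66946105, plus strand: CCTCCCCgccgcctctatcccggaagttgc
Rpl22, chr4:152325716-152325745, plus strand: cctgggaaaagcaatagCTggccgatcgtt
Rpl22l1, chr3:28805498-28805527, plus strand: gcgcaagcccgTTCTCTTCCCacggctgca
Rpl3l, chr17:24727816-24727845, plus strand: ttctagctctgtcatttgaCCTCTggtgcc
Rpl35, chr2:39005112-39005141, minus strand: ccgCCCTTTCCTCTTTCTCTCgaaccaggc
Rps6, chr4:86857348-86857377, minus strand: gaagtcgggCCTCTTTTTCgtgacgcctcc
Rps10, chr17:27635225-27635254, minus strand: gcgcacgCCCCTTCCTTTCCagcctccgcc

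Within the printed bases the run was 18 bases long in Rpl35, 13 in Rps10, 10 in Rps6 and 9 in Rps27, with 7 in Rps27l, 6 in Rps27rt and 5 in Rpl3l. That of Rps27l begins at the first printed base, so it may be longer, and it ends before the start. The run of Rpl3l begins only at base 10 after the start. In the other pair the order was turned, with 2 bases in Rpl22 and 10 in its paralog Rpl22l1. RefSeq windows of 300 bases (250 before and 50 after a start) were matched by symbol for 65 of the 93 genes. A run of at least 7 pyrimidines at the start was found in 43.3% of the 67 core windows, against 13.3% of the 75 windows of mitochondrial ribosomal protein genes and 16.3% of all 32851 windows. The letters CTTTCC stood on the sense strand within 50 bases of the start in 31.3% of core windows and in 4.69% of all windows (on either strand anywhere in the window, 49.3% and 26.6%). The letters CCGGAAG, searched on both strands and neither containing nor contained in CTTTCC, were present in 37.3% of core windows, 34.7% of mitochondrial ribosomal protein windows and 8.86% of all windows. These are letter matches and not measured binding sites. The RefSeq starts of Rpl35 and Rps10 lie inside the genes as the count tables annotate them, that of Rps10 by 1425 bases.

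Samples held between 12781144 and 35400034 counts over genes. The targeted gene, Ackr2, had 469, 436, 150, 372 and 0 counts in WT lung replicates 1 to 5 and 50, 38, 25, 7 and 7 in the ACKR2-/- lung samples. It had 5, 8, 7 and 9 counts in WT SPMs and 0 in each ACKR2-/- SPM sample, and monocytes gave no more than 2 counts in either genotype. The library labelled WT lung replicate 5 thus held no Ackr2 count, and several of the medians and fitted changes that rest on it are also given without it, alone or with replicate 3. The exact tests of paralog shares and the counts of related genes were run with it only. WT lung replicate 3 also stood apart. Its summed level of 9 interstitial macrophage markers was 12579 CPM (counts scaled to a common library total), against 528 to 2017 CPM in the other 9 lung libraries and 11119 to 17748 CPM in SPMs, and none of the 9 was at 0 in the lung table. The same library held 65871 CPM of small peritoneal macrophage markers, against 3529 to 7980 CPM in the other lung libraries, and 4219 CPM of B cell markers, against 619 to 1660 CPM. The small peritoneal macrophage list includes H2-Ab1 and Cd74 of MHC class II presentation, and Mrc1, which is also on the interstitial list. Which of its genes carried the sum is not given, so the sum is not specific to peritoneal cells. Epithelial marker genes summed to between 237 and 19351 CPM across the lung samples. WT replicate 5 had 402 CPM of epithelial, 88.7 of endothelial and 76.0 of fibroblast markers. The other WT lung libraries had 6739 to 16781, 170 to 564 and 366 to 856 CPM. In ACKR2-/- replicate 4 these sums were lower still, at 237, 82.2 and 51.3 CPM. The part of this in the Ackr2 counts was not tested.

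Per kilobase of annotated gene length, the core genes spanned a wide range of levels in every cell type. The median core gene stood at 136 CPM in WT monocytes, 131 CPM in WT SPMs and 90.9 CPM in WT lung macrophages, and 54, 55 and 55 of the 77 core genes lay within 3-fold of that median. The annotated lengths ran from 383 bases in Rpl36 to 6270 in Rps15a and can exceed the mRNA. Rps24 has a length of 6256 bases, but its longest protein-coding transcript has 1613. The levels and their order therefore depend on the lengths used. Rplp1 and Rplp0 encode proteins of the stalk, where translation factors bind. Rplp1 was the highest gene in SPMs, at 1060 ± 254 CPM per kilobase (SD, n = 4), and Rplp0 was among the 4 highest in monocytes and lung macrophages, at 630 ± 24.1 (SD, n = 4) and 435 ± 74.4 (SD, n = 5). Also among the 4 highest were Rps3a1 and Rpl32 in monocytes, Rps29 and Rpl41 in SPMs, and Rps3a1 in lung macrophages. The order of the core genes was alike between cell types, with Spearman correlations over the 77 genes of 0.939 between monocytes and SPMs, 0.915 between lung macrophages and SPMs and 0.927 between monocytes and lung macrophages. These describe genes measured with the same lengths and sequences and are not tests over replicates.

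At the bottom, Rpl24 and Rpl13a, both large-subunit proteins, had less than 5 CPM per kilobase in each WT cell type. Rpl24 gave 0.579 in monocytes, 0.386 in SPMs and 0.922 in lung macrophages. These 2 genes share 47.0% and 29.4% of their exonic bases with an overlapping annotated gene on the same strand, and the part of this in their levels was not tested. Rpl7a (2:26910764-26913318, plus strand), at 13.4, 6.11 and 53.0 CPM per kilobase, has 73.5% of its 100-base windows repeated in other genes. Over all members, 28 share same-strand exonic bases with another gene and 19 share exonic bases with a gene on the opposite strand. Of the 91 with a protein-coding transcript, 27 have at least 50% of their windows in another gene. The counts of such genes are uncertain.

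**Figure D1:**
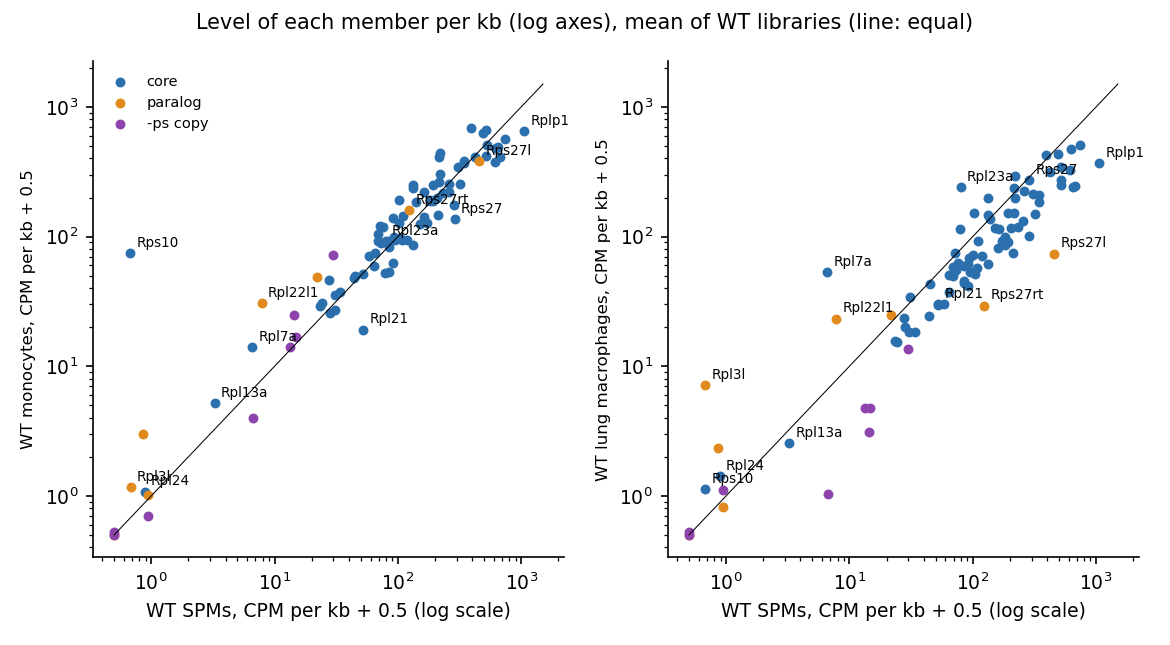
Mean level of each member in WT samples, as CPM per kilobase of gene length plus 0.5 on log axes, for monocytes (left) and lung macrophages (right) against SPMs, with 1 point per gene coloured by kind and a line where both are equal. Most core genes lie along the line in monocytes and below it in lung macrophages, while Rps10 lies far above it in monocytes and Rps27l far below it in lung macrophages.

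The first comparison asked whether loss of ACKR2 went with a change of ribosomal protein mRNA. All 93 genes together took 2.59%, 2.47%, 2.57% and 2.76% of the counts in WT monocytes and 3.25%, 3.51%, 2.63% and 2.99% in ACKR2-/- monocytes. Of the ACKR2-/- samples, 3 lay above every WT sample and replicate 3 lay within their range. In SPMs the shares were 3.3%, 2.24%, 1.85% and 2.32% in WT and 2.13%, 2.26%, 2.39% and 2.57% in ACKR2-/- samples, and the WT samples spanned the whole ACKR2-/- range. In lung macrophages they were 1.78%, 1.49%, 2.14%, 1.34% and 1.72% in WT and 1.84%, 2.41%, 1.77%, 1.88% and 3.59% in ACKR2-/- samples, with overlap of the groups and ACKR2-/- replicate 5 above all others. Since these are bulk samples, fewer cells of a type and less RNA per cell cannot be told apart.

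**Figure D2:**
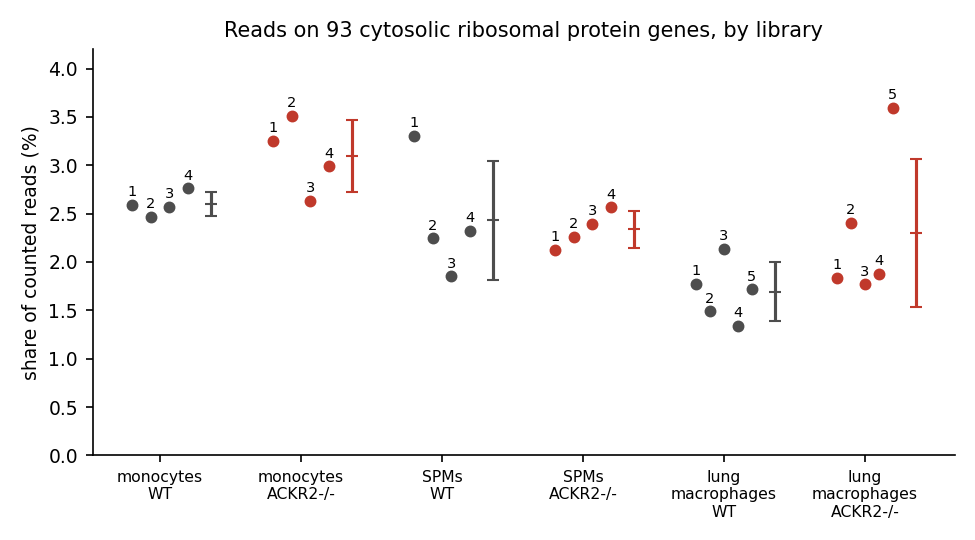
Share of each library's gene counts, in percent, taken by the 93 cytosolic ribosomal protein genes, by cell type and genotype, with 1 point per sample and bars for the group mean ± SD. ACKR2-/- lung replicate 5 is highest at 3.59%, and the genotypes overlap in all 3 cell types.

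In monocytes 71 of the 88 members tested had a higher fitted level in ACKR2-/- samples, with a median log2 fold change of 0.14 against 0.0041 over all 13246 genes, of which 50.4% were higher. None was called, where a call needs an adjusted p under 0.05 (quasi-likelihood test of edgeR, adjusted by Benjamini-Hochberg) and a log2 change beyond 0.5. The share of all genes called was 0.913% higher and 0.355% lower. At an unadjusted p under 0.05, 9 members were higher and 0 lower, against 8.83% and 8.17% of all genes, so the higher share was near that background, and DESeq2 gave 0 calls with 12 members higher and 0 lower at that level. No member lay higher or lower in every ACKR2-/- sample than in every WT sample, against 4.94% and 5.25% of all genes. Large-subunit genes were higher in 37 of 46 cases and small-subunit genes in 28 of 31, with medians of 0.16 and 0.14. The median rested on ACKR2-/- replicate 2, without which 58 of 89 members were higher and the median was 0.041. Without ACKR2-/- replicate 3 the median was 0.21 and 3 members (Rpl22l1, Rpl35 and Rps27l) were called higher. The shares of all genes in that refit and in DESeq2 are not given, so those member counts cannot be set against a background.

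Rps27l (9:66946086-66949516, plus strand), the p53-inducible paralog of Rps27, was the member of smallest p in monocytes. It stood at 293, 324, 309 and 374 CPM in WT and 550, 488, 355 and 432 CPM in ACKR2-/- samples (log2 fold change 0.49, SE 0.15, edgeR quasi-likelihood Benjamini-Hochberg adjusted p = 0.146). Of its ACKR2-/- samples, 3 lay above all WT samples and replicate 3 did not. Rpl35, whose start carries the longest printed pyrimidine run, gave 214, 214, 213 and 257 CPM in WT and 396, 321, 235 and 316 CPM in ACKR2-/- samples (log2 fold change 0.50, SE 0.16, adjusted p = 0.149 in the same edgeR test). Again ACKR2-/- replicate 3 was the 1 sample within the WT range. Rps27a, made as a fusion of ubiquitin and a small-subunit protein, gave 251, 345, 246 and 317 CPM in WT and 475, 592, 294 and 364 CPM in ACKR2-/- samples, with overlapping groups and a log2 fold change of 0.57 (SE 0.21, edgeR adjusted p = 0.203).

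Stalk genes differed less. The log2 fold changes of Rplp0, Rplp1 and Rplp2 in monocytes were 0.06, -0.01 and 0.02, and that of Rpsa, which also serves as a laminin receptor, was -0.09. Rps6, the substrate of S6 kinase, and the Mdm2-binding Rpl5 each gave 0.30, against 0.05 for Rpl11 and 0.18 for Rpl23. None of these passed the test, and the same holds for Rps27rt, Rpl27-ps3 and Rpl36, the lower members of smallest p, at -0.22, -0.26 and -0.12. Other markers also differed in the monocyte samples. Summed T cell markers, none of the 10 at 0, were 4.23 to 5.43 CPM in WT and 72.2 to 135 CPM in ACKR2-/- samples, and summed neutrophil and granulocyte precursor markers were 27493 to 60462 CPM in WT and 12821 to 46287 CPM in ACKR2-/- samples. The alveolar macrophage list, of which 3 of 8 genes were at 0, summed to 7536 to 8771 CPM in WT and 5261 to 6671 CPM in ACKR2-/- monocytes. This list, which includes Chil3, summed to only 1701 to 3050 CPM in the lung libraries, so the sum is not specific to alveolar macrophages. Which of its genes carried the sum is not given. ACKR2-/- replicates 1 and 2, the samples of highest ribosomal share, had erythroid marker sums of 1421 and 490 CPM against 228 to 289 CPM in WT, and monocyte marker sums of 34022 and 44926 CPM against 52733 to 70663 CPM. ACKR2-/- replicates 3 and 4 had erythroid sums of 107 and 69.0 CPM and monocyte sums of 73968 and 67706 CPM. The part of these lists in the ribosomal values was not tested. Cycling-cell markers were alike, at 1807 to 2110 CPM in WT and 1813 to 2092 CPM in ACKR2-/- samples.

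In SPMs the fitted direction was the opposite. Of the 88 members tested, 74 were lower and 14 higher in ACKR2-/- samples, with a median log2 fold change of -0.19 against -0.052 over all 12997 genes, of which 44.3% were higher. No member was called by edgeR's quasi-likelihood test, where 0.0308% of all genes were called higher and 0.0154% lower, nor by DESeq2. At an unadjusted p under 0.05 edgeR gave 1 member higher and 5 lower, against 2.93% and 2.52% of all genes, and DESeq2 gave 1 and 6. Large-subunit genes were lower in 40 of 46 cases and small-subunit genes in 26 of 30. WT replicate 1 held the highest level of 51 of the 76 core genes tested, and without it 71 members were still lower but the median was -0.092.

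Rpl21, a large-subunit protein, gave 235, 166, 148 and 165 CPM in WT SPMs and 112, 135, 105 and 131 CPM in ACKR2-/- SPMs. No sample overlapped, but the change of -0.56 (SE 0.20, edgeR quasi-likelihood Benjamini-Hochberg adjusted p = 0.788) did not pass over all genes. Rps15, a small-subunit protein, gave 411, 291, 331 and 294 CPM against 238, 293, 213 and 225 CPM, with ACKR2-/- replicate 2 inside the WT range and a log2 fold change of -0.45 (SE 0.20, edgeR adjusted p = 0.788). In all, 6 members lay lower in every ACKR2-/- SPM sample and 1 higher, against 1.6% and 1.8% of all genes.

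The 1 higher member was Rpl36al, a paralog of Rpl36a that was close to the detection limit, with 4 to 17 counts a sample in WT and 32 to 63 in ACKR2-/- SPMs. It stood at 0.335, 0.878, 0.352 and 0.517 CPM in WT and 1.23, 1.32, 1.62 and 1.24 CPM in ACKR2-/- samples, without overlap (log2 fold change 1.35, SE 0.38, edgeR adjusted p = 0.788). Rpl36al shares 24.5% of its exonic bases with an overlapping gene. Rpl3l, at 1.40, and Rpl7a, at 0.57, had the next smallest p among higher members and overlapped between genotypes. Large peritoneal macrophage markers summed to 356 to 676 CPM in WT and 680 to 1849 CPM in ACKR2-/- SPMs, with none of the 6 at 0. The small peritoneal macrophage list itself summed to 130943 to 184494 CPM in WT, highest in replicate 1, and 92084 to 129701 CPM in ACKR2-/- SPMs, with none of the 8 at 0 in WT. The part of both lists in these values was not tested.

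In lung macrophages the fitted direction was again higher in ACKR2-/- samples, and by more. Of the 87 members tested, 85 were higher, including all 77 core genes, with a median log2 fold change of 0.47 against -0.038 over all 16824 genes, of which 44.8% were higher. No gene of any kind was called by edgeR's quasi-likelihood test, so the share called was 0% higher and 0% lower, and DESeq2 called no member. At an unadjusted p under 0.05 edgeR gave 8 members higher and 0 lower, against 1.24% and 1.72% of all genes, and DESeq2 gave 6 and 0. The smallest adjusted p of a member was 1.0, and no member separated the genotypes without overlap, against 0.22% of all genes higher and 0.226% lower. Medians were 0.43 for the large and 0.51 for the small subunit.

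The spread within the lung groups was of the same size as the difference. Of the 77 core genes, 75 were highest in ACKR2-/- replicate 5, whose median deviation from the WT mean was 1.22 on the log2 scale, and 63 were lowest in WT replicate 4, at -0.38. Without ACKR2-/- replicate 5 the median fold change was 0.21, with 84 of 87 members higher. Without WT replicate 3 it was 0.61, without WT replicate 5 it was 0.50, and without WT replicates 3 and 5 it was 0.70, with 48 members at an unadjusted p under 0.05 and still none called. The share of all genes at that level in this refit is not given, so the 48 cannot be set against a background.

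Rps29, a small-subunit zinc-finger protein, was the lung member of smallest p. It gave 171, 149, 212, 129 and 196 CPM in WT and 197, 263, 189, 219 and 501 CPM in ACKR2-/- samples. The groups overlapped and ACKR2-/- replicate 5 was far above the next sample at 263 (log2 fold change 0.68, SE 0.28, edgeR quasi-likelihood Benjamini-Hochberg adjusted p = 1.0). Rpl7, of the large subunit, ranged from 285 to 440 CPM in WT and from 404 to 797 CPM in ACKR2-/- samples (0.52, SE 0.22), and Rps23, of the decoding centre, from 212 to 333 CPM and from 262 to 664 CPM (0.57, SE 0.25), both with the highest value in ACKR2-/- replicate 5. Without WT replicate 5 the changes of Rps29, Rpl7 and Rps23 were 0.75, 0.57 and 0.62. Stalk genes lay on the same side, with 0.35 for Rplp0, 0.58 for Rplp1 and 0.71 for Rplp2, as did Rpsa at 0.55, Rps6 at 0.47, Rpl5 at 0.37, Rpl11 at 0.36 and Rpl23 at 0.53. Rpl7l1 and Rps27l, both paralogs, were the only members tested with a fitted change below 0, at -0.03 and -0.05, and both values turned positive when WT replicate 3 was left out, to 0.13 and 0.41. NK cell markers summed to 200 to 633 CPM in WT and 464 to 3154 CPM in ACKR2-/- lung samples, with none of the 8 at 0. Erythroid markers were highest in ACKR2-/- replicates 5 and 2, at 2579 and 1911 CPM, which also had the highest ribosomal shares, against 52.0 to 1735 CPM in the other 8 lung libraries. The part of both lists in these values was not tested.

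**Figure D3:**
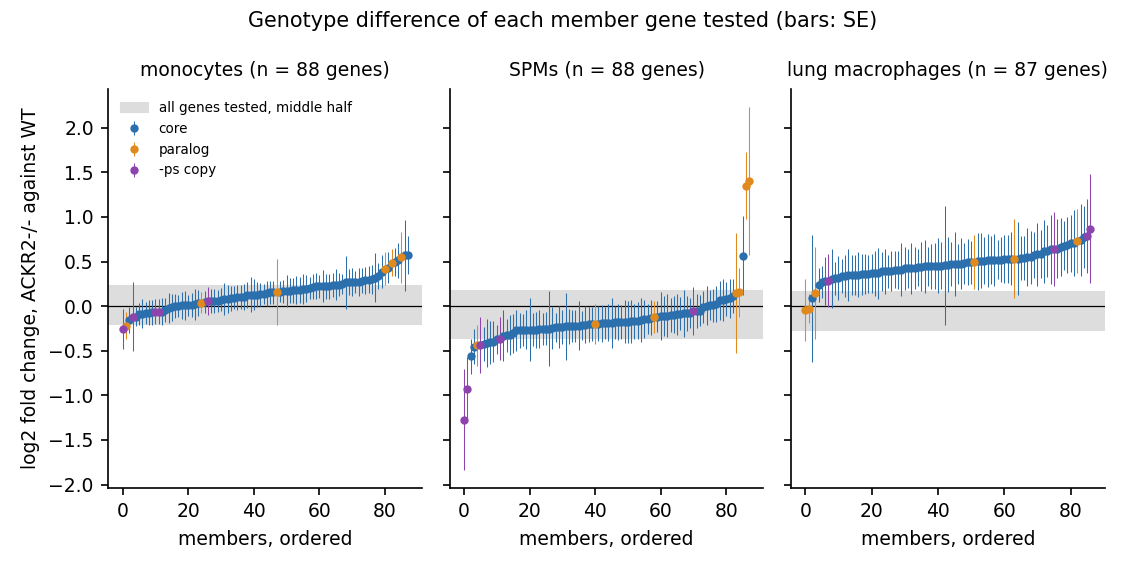
Log2 fold change of each tested member, ACKR2-/- against WT, ordered within each cell type, with bars for the SE and a grey band for the quartiles of all genes tested. Medians of the members are 0.14 in monocytes, -0.19 in SPMs and 0.47 in lung macrophages, and no member is called in any of them.

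**Figure D4:**
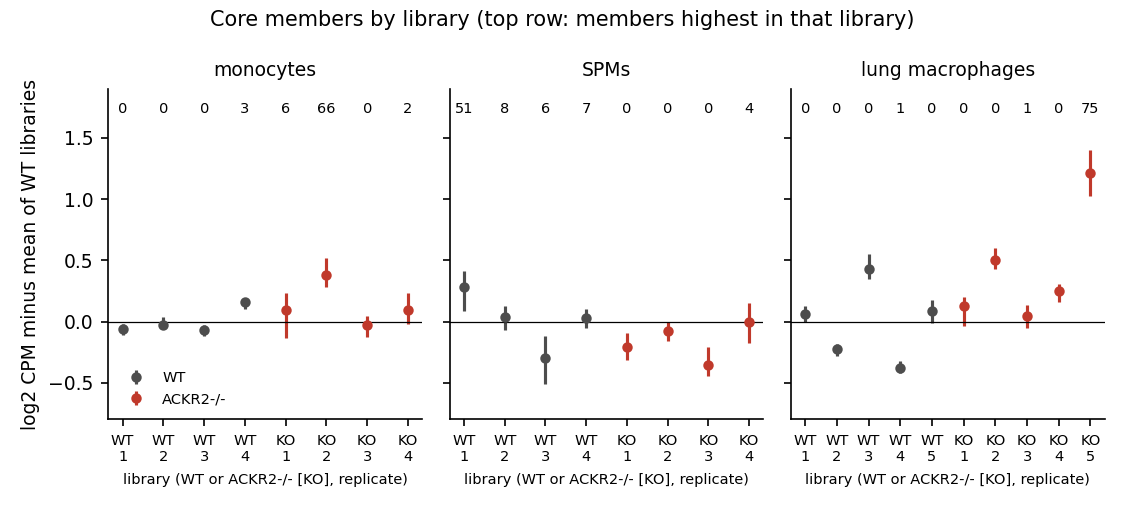
Median over the tested core genes of each sample's log2 CPM minus the WT mean, with bars for the quartiles over genes and, in the top row, the number of core genes highest in that sample. ACKR2-/- (KO) lung replicate 5 lies at 1.22 and ACKR2-/- monocyte replicate 2 at 0.38, apart from the rest of their groups.

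The difference of the genotype effects between cell types was tested in 1 edgeR fit of all 26 samples over 17792 genes, 89 of them members. For lung macrophages minus SPMs 84 members were positive (47.2% of all genes) with a median of 0.58, and none was called (0.0225% of all genes called higher and 0.0169% lower). At an unadjusted p under 0.05, 23 members were higher and 1 lower in edgeR's fit, against 2.5% and 3.65% of all genes, and 38 and 0 in DESeq2. Without ACKR2-/- lung replicate 5 the count higher in edgeR's fit was 8 and the median 0.33, and without WT lung replicates 3 and 5 the count was 56 and the median 0.75. The shares of all genes in these refits and in DESeq2 are not given, so these counts cannot be set against a background. For monocytes minus SPMs 80 members were positive (48.8% of all genes) with a median of 0.22, and none was called (0.225% and 0.0281% of all genes), with 1 higher and 0 lower at an unadjusted p under 0.05 (3.81% and 3.66% of all genes) and 2 and 0 in DESeq2. For monocytes minus lung macrophages 81 were negative and 8 positive (52.5% of all genes positive) with a median of -0.35, and none was called (0.146% and 0.00562%), with 0 higher and 3 lower at that level (4.14% and 1.93% of all genes) and 0 and 4 in DESeq2. A difference of the genotype effect between cell types was therefore not shown for any single ribosomal protein gene.

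Related genes outside the list were read in the same fits, and none was called between genotypes by edgeR. Of 16 translation factors with TOP mRNAs, such as the elongation factors Eef1a1 and Eef2, 11 were higher in ACKR2-/- monocytes (median 0.03), 2 in SPMs (-0.10) and 15 in lung macrophages (0.30). At an unadjusted p under 0.05 only 1 of them, in lung, was higher and none lower, and DESeq2 was not read for these lists. Mitochondrial ribosomal protein genes, which share the function but not the compartment, were higher in 64 of 76 in monocytes (0.12), 43 of 77 in SPMs (0.0063) and 60 of 78 in lung macrophages (0.13), with 4, 1 and 2 of them higher and 0 lower at an unadjusted p under 0.05. Of 24 ribosome biogenesis genes, such as Fbl and Ncl, 13, 10 and 9 were higher, with medians of 0.010, -0.087 and -0.040, and at an unadjusted p under 0.05 2 were higher and 1 lower in monocytes, 0 in SPMs and 1 lower in lung macrophages. The 10 growth control genes, among them Myc, Mtor and Larp1, had medians between -0.078 and -0.017, with 1 lower in monocytes and 1 higher in lung macrophages at that level.

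The second comparison set the WT cell types side by side. Each cell type has its own count table, so cell type and table cannot be told apart, and the values depend on the scaling. With TMM scaling, members were lower in WT monocytes than in WT SPMs for 68 of 89 and higher for 3, with 21.8% and 20.1% of all genes called and a median log2 difference of -1.0 against 0 over all genes. Only 6 members had a positive difference, against 45.2% of all genes. With library totals alone 8 were lower and 19 higher, and the median was 0.15 against 0.96 over all genes, so the sign turned while the members stayed below the median gene. The 10 highest genes took 31.1% to 40.4% of counts in SPMs, 13.2% to 18.4% in monocytes and 8.63% to 15.6% in lung macrophages. In lung macrophages 81 members were lower than in SPMs and 2 higher (23.2% and 39.1% of all genes), with a median of -1.81 against 0.41 and 6 positive against 60.3% of all genes, and with library totals alone 47 were lower and 9 higher, with a median of -0.58 against 1.62. In monocytes 65 members were higher than in lung macrophages and 5 lower (24.4% and 39.5% of all genes), with a median of 0.79 against -0.34 and 82 positive against 41.8% of all genes, and library totals alone gave 60 and 6. Without WT lung replicates 3 and 5, 82 members were lower in lung macrophages than in SPMs (median -2.03) and 70 were higher in monocytes than in lung macrophages (0.99). Calls are those of the edgeR fit. The shares of all genes called with library totals alone or without WT lung replicates 3 and 5 are not given. Member counts in those settings therefore cannot be set against a background. Mitochondrial ribosomal protein genes had medians of -0.57, -1.86 and 1.15 in the same 3 comparisons.

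Some genes stood far from the family. Rps27 gave 121, 85, 126 and 128 CPM in WT monocytes and 677, 560, 294 and 571 CPM in WT SPMs on the common scale, with no overlap (log2 difference -2.19, SE 0.30, edgeR quasi-likelihood Benjamini-Hochberg adjusted p = 1.66e-06, and -1.08 with library totals alone). For monocytes against SPMs the log2 difference was -2.59 for Rpl21 and -1.88 for Rpl35, and -1.48 and -0.71 with library totals alone. Rps10, a small-subunit protein, stood at 130 to 149 CPM in WT monocytes but at 0.466 to 1.0 CPM in WT SPMs and 0.428 to 1.62 CPM in WT lung macrophages. Its exons share 20.6% of their bases with the read-through gene RPS10-NUDT3, which the SPM and lung tables list with 0 counts and the monocyte table does not list, so the difference in Rps10 cannot be told apart from the annotation used for counting. Rpl7a, at 57.1 to 89.7 CPM in lung macrophages and 6.53 to 29.5 CPM in SPMs, was higher in lung by 1.94 (SE 0.36, 1.94 without WT lung replicate 5 and 3.12 with library totals alone), and Rpl23a and Rpl17 were higher there than in monocytes, at -1.31 and -1.07 for monocytes against lung (-1.31 and -1.05 without WT lung replicate 5), the latter 0.78 once counts of named pseudogenes were added. The share of 100-base windows found in other genes was 57.9% in Rps27, 16.7% in Rpl21 (over 40 genes), 30.7% in Rpl35, 73.5% in Rpl7a, 80.0% in Rpl23a and 42.5% in Rpl17, and the counts of all of these carry that limit. Rpl23a also shares 59.7% of its exonic bases with Tlcd1, which lies on the opposite strand. Tlcd1 averaged 4920 counts in lung samples, against 46.25 in monocytes and 22.5 in SPMs. The part of this overlap in the Rpl23a difference was not tested.

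The paralogs were compared with their partners as the paralog's share of both genes' counts per kilobase, which does not depend on scaling between libraries. In these shares too, cell type and count table cannot be told apart. Rps27l made up 70.5%, 79.3%, 71.0% and 74.8% of the Rps27 and Rps27l pair in WT monocytes and 52.2%, 62.4%, 76.1% and 60.6% in WT SPMs. In WT lung macrophages its share was 20.5%, 19.8%, 34.0%, 15.9% and 12.8%. Every lung sample was thus below every monocyte and SPM sample. The lung share differed from both by an exact permutation test, two-sided p = 0.0159 each and 0.0317 after Benjamini-Hochberg adjustment over 18 tests, the smallest p that 4 against 5 samples allow. Rps27 shares 57.9% of its 100-base windows with other genes, most of all with Rps27rt. The Rps27rt share of its pair with Rps27 averaged 54.5% in WT monocytes, 32.1% in WT SPMs and 9.51% in WT lung macrophages. The part of this in the Rps27l share was not tested. In CPM on the common scale Rps27l ranged from 578 to 731 in WT SPMs, from 225 to 297 in WT monocytes and from 24.7 to 92.0 in WT lung macrophages (log2 difference from SPMs -3.87, SE 0.29, edgeR adjusted p = 2.9e-11, and -2.62 with library totals alone). The highest lung value, 92.0 CPM, was that of WT replicate 3, and the difference from SPMs was -4.27 without it, -3.77 without WT replicate 5 and -4.24 without WT replicates 3 and 5.

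Rpl22l1, the paralog of the RNA-binding Rpl22, made up 49.3%, 49.6%, 51.7% and 49.5% of its pair in WT monocytes and 18.1%, 23.8%, 32.4% and 23.7% in WT SPMs. In lung macrophages it made up 56.3%, 66.7%, 45.6%, 67.7% and 66.7%. SPMs were below each sample of the other cell types (exact permutation p = 0.0286 against monocytes and 0.0159 against lung, adjusted p = 0.0429 and 0.0317), while monocytes and lung overlapped (exact p = 0.0794, adjusted 0.110). As a level, Rpl22l1 was higher in WT monocytes than in SPMs by 0.88 on the log2 scale (SE 0.26, edgeR adjusted p = 0.00821), a call lost with RLE factors (0.69, adjusted p just above the threshold), while library totals alone gave 2.05 (adjusted p = 1.09e-06 in the same edgeR test).

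Rpl3l, known as the form of striated muscle, was a small part of its pair everywhere. Its share was 0.318% to 0.418% in WT monocytes and 0.0414% to 0.343% in WT SPMs, on 21 or fewer counts a sample. In WT lung macrophages it was 4.3%, 5.51%, 0.629%, 6.65% and 5.6%, on 251, 289, 42, 358 and 283 counts, above all monocyte and SPM samples (exact permutation p = 0.0159, adjusted 0.0317, against each). WT lung replicate 3, the library with the high interstitial marker sum, was the lowest. The lung level exceeded that of SPMs by 4.08 on the log2 scale (SE 0.67, edgeR adjusted p = 1.1e-05), by 4.35 without WT lung replicate 3, by 3.95 without replicate 5, by 4.29 without both and by 5.28 with library totals alone. Rpl7l1 made up 20.9% ± 1.61 (SD, n = 4) of its pair in monocytes, 14.4% ± 5.64 (SD, n = 4) in SPMs, where WT replicate 1 gave 5.94%, and 15.1% ± 1.25 (SD, n = 5) in lung macrophages. Rpl36al stayed under 10% in every sample, Rpl39l had at most 24 counts and Rpl10l, known from testis, had none.

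Between genotypes none of the 18 paralog shares differed after adjustment. Those of smallest p were Rpl7l1 in lung, 15.1% ± 1.25 in WT and 11.5% ± 2.88 in ACKR2-/- samples (SD, n = 5 each, exact permutation p = 0.0159, adjusted 0.257), and Rpl36al in SPMs, 0.748% ± 0.355 and 2.16% ± 0.496 (SD, n = 4 each, exact p = 0.0286, adjusted 0.257). Rps27l made up 84.8%, 75.7%, 75.8% and 76.4% of its pair in ACKR2-/- monocytes, where 3 samples lay within the WT range (adjusted p = 0.686 by the exact permutation test).

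**Figure D5:**
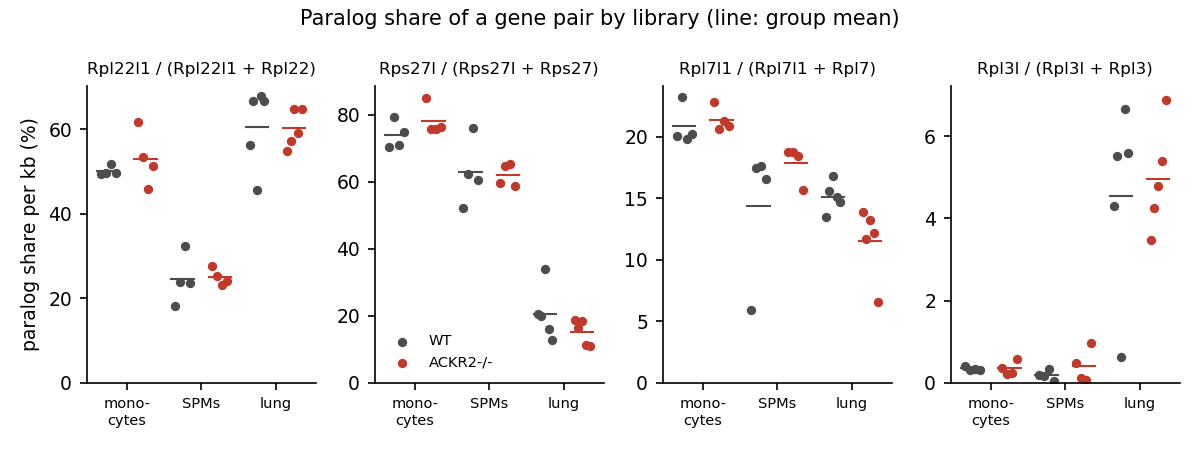
Paralog share of each pair per kilobase, in percent, for 4 of the pairs, with 1 point per sample and a line for the group mean, by cell type and genotype. The Rps27l share lies between 12.8% and 34.0% in WT lung macrophages and at or above 52.2% in WT monocytes and SPMs, and the Rpl22l1 share is lowest in SPMs.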

How the data were processed

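The authors deposited raw counts per gene in 3 tables, 1 per cell type. Submitters' processing notes name mm10, HISAT2 (version 2.0.5), featureCounts (version 1.5.0-p3) and DESeq2. Libraries were amplified, poly-A selected and sequenced in pairs by a provider. Which tool made which table is not stated, and only the lung table holds summary lines for reads without a gene or with more than 1 match, so it may have been counted differently. These lines hold 54.4% to 58.3% of each sample's total and entered neither library sizes nor tests. Samples held 12781144 to 35400034 counts, so genes with few counts are the least precise. P-values measure the spread between the samples.

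Genotypes were compared within each table and WT cell types in 1 fit of the genes common to the tables, with edgeR 4.0.16 in R 4.3.3 (filterByExpr with minimum count 10, TMM, quasi-likelihood test, Benjamini-Hochberg adjustment over all genes tested, after a check on simulated data). Paralog shares used two-sided exact permutation tests. Alternatives were RLE factors, other filters, DESeq2 1.42.0, the replicate block, added pseudogene counts and each library left out. Library totals without scaling were added after the data were seen. Named were the 3 members of smallest p per direction and genotype comparison, the 4 highest and lowest per kilobase, the 4 of largest called difference per cell-type direction, the paralog pairs and a set of well-studied members. The members and lists were chosen with earlier results of these data known. Results for some genes are not reported here.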

Additional observations from a re-analysis of the deposited data

Results flagged for a closer look

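Of 76 groups of 4 or 5 samples examined for a sample far from the others, 11 held one, where chance gives about 1 in 20. Most concerned paralog shares. In WT monocytes these were an Rpl3l share of 0.418% in replicate 1, an Rpl7l1 share of 23.3% in replicate 2, and, both in replicate 3, an Rpl22l1 share of 51.7% and an Rpl36al share of 6.49%. In ACKR2-/- monocytes replicate 1 had an Rps27l share of 84.8%. In SPMs the Rpl7l1 share was low in WT replicate 1, at 5.94%, and in ACKR2-/- replicate 4, at 15.7%, and the Rps27rt share was high in WT replicate 3, at 52.5%. Rps27rt shares 89.5% of its 100-base windows with other genes.

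The other 3 were levels. Rpl35 stood at 257 CPM in WT monocyte replicate 4, against 214 in the nearest sample. Rps29 stood at 501 CPM in ACKR2-/- lung replicate 5, the library in which 75 of 77 core genes were highest, against 263 in the nearest sample. Rps27l stood at 123 CPM in WT lung replicate 3, against 55.8 in the nearest sample.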

How the results depend on the processing

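Between genotypes no member was called in SPMs or lung macrophages under any alternative run, and in monocytes the count called higher ranged from 0 to 3 over the left-out libraries. Member counts under the alternatives, the replicate block among them, are given without the share of all genes called in the same setting. In lung macrophages the Rps27l change was 0.068 with a replicate block, -0.23 to 0.41 over the left-out libraries and 0.39 without WT replicates 3 and 5, and that of Rpl7l1 was -0.10 to 0.13 and 0.22 in the last 2 settings. Same-numbered samples were not treated as pairs in the main fits. A sample was closest to its own number in 1 of 4 monocyte, 0 of 4 SPM and 1 of 5 lung pairs, which cannot exclude a shared preparation. The lung samples numbered 1 correlated at 0.689, and WT lung replicate 5 at 0.759 with an ACKR2-/- sample of another number. Epithelial sums in lung replicates 1 to 5 were 16781, 11787, 8794, 6739 and 402 CPM in WT and 19351, 12967, 8071, 237 and 5760 CPM in ACKR2-/- samples. The replicate block left 38 members lower in monocytes than SPMs, and 24 higher and 3 lower in monocytes than lung macrophages. With library totals and no scaling factor, chosen after seeing the data, monocytes against SPMs gave 19 higher and 8 lower, and lung macrophages against SPMs 9 and 47. Adding the counts of named pseudogenes gave 3 lower in monocytes than lung macrophages, turned Rpl17 there to 0.78 and raised the WT monocyte share to 2.76%. The causes were not tested. RLE factors and DESeq2 both gave a median of -1.18 for monocytes against SPMs. The depth limits Rpl3l, Rpl36al and Rpl39l in SPMs.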

Other observations

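Among the 8 members named as pseudogene copies, 5 were tested between cell types, and all 5 were lower in WT lung macrophages than in WT SPMs (median log2 difference -3.02) and higher in WT monocytes than in lung macrophages (2.51). Rps12-ps3, whose 100-base windows are all found in other genes, gave 8.37 to 12 CPM in WT monocytes, 8.48 to 17.6 CPM in WT SPMs and 0.323 to 1.69 CPM in WT lung macrophages. Rps27rt, a copy of Rps27, gave 43.4 to 56.2, 70.9 to 116 and 5.01 to 11.2 CPM. Named pseudogenes of the family took 0.163% of counts in WT monocytes, 0.101% in WT SPMs and 0.0262% in WT lung macrophages (means of 4, 4 and 5 samples). Whether reads with more than 1 match were counted alike in the 3 tables is not stated, so these differences cannot be told apart from counting.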
